A study of Mus musculus with 2 samples.

Results

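The Mir378 family of microRNA genes and the gene that lies across one of them were described in the gastrocnemius, the large muscle of the calf. The members were taken by gene name from the GENCODE M21 annotation: Mir378a, Mir378b, Mir378c and Mir378d, and Gm25301, the microRNA gene that overlaps Mir378a on the other strand. They are 5 of the 2202 microRNA genes in the deposited counts. Both libraries came from gastrocnemius of adult male mice of the strain 5xFAD/CAST, aged 8 to 10 months, and were made from RNA of under 30 bases. 5xFAD is a transgenic line whose transgenes are expressed in neurons, and CAST is an inbred strain of wild origin. It is not stated in the labels whether these animals carried the transgene. There is 1 group with biological replicates 1 and 2, no treatment and no control group. The labels give both tissue samples the same donor record and do not state separate animals, so the spread between libraries may be technical.

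MicroRNAs are cut from hairpin precursors, and the mature strand guides a silencing complex to messenger RNAs that pair with its seed, bases 2 to 8. Mir378a lies within Ppargc1b, which encodes PGC-1β, a transcriptional coactivator of genes for mitochondria and fatty acid oxidation, and its microRNA is known to be made together with this host. In striated muscle and fat, miR-378 is known for restraining oxidative metabolism through targets such as Crat and Med13, and in muscle precursor cells for promoting differentiation.

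The mature sequences are shown because the family is defined by them, and because the 3 members with an entry in the RefSeq table (build GRCm38.p6) differ in the part that selects targets. Capitals mark the seed, and all sequences run from 5′ to 3′.
miR-378b: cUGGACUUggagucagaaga
miR-378c: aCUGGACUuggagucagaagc
miR-378d: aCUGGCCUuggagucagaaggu

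The 3 seeds all differed. miR-378b starts 1 base further in than miR-378c, so that its seed is UGGACUU where that of miR-378c is CUGGACU, although the 2 microRNAs have an unbroken run of 19 bases in common. Counted from the 5′ end of miR-378c, the only substitution in miR-378b over 20 aligned bases was C21A. miR-378d carried A6C, inside the seed, and C21G, and its longest run in common with either of the others was 14 bases. No other mature sequence among the 1738 in the table had any of these 3 seeds. The table has no entry for Mir378a or Gm25301, so whether Mir378a shares one of these seeds was not examined. Outside the family, the longest run that any of the 3 shared with another of the 1005 hairpins was 10 bases.

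The hairpins are shown because the mature sequence does not sit on the same side in all of them. Capitals mark the mature sequence.
Mir378b: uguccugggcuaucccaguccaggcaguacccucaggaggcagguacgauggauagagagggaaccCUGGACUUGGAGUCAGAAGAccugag
Mir378c: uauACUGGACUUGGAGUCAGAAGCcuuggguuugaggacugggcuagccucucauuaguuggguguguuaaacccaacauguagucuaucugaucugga
Mir378d: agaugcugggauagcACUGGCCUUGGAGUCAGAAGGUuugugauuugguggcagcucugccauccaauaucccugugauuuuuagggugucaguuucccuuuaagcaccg

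In Mir378b the mature sequence occupies bases 67 to 86 of 92, on the 3′ side. In Mir378c it occupies bases 4 to 24 of 99, and in Mir378d bases 16 to 37 of 110, both on the 5′ side. The minimum free energy predicted by RNAfold was -31.1 kcal/mol for Mir378b, -27.0 for Mir378c and -35.0 for Mir378d. Per base, these were -0.338, -0.273 and -0.318, against a median of -0.406 over the 1005 hairpins of the table. Of all hairpins, 24.1% were predicted to be less stable per base than Mir378b, 6.77% less than Mir378c and 17.0% less than Mir378d. In the predicted folds, 15 of 20 mature bases were paired in Mir378b, 15 of 21 in Mir378c and 13 of 22 in Mir378d. These shares, 75.0%, 71.4% and 59.1%, lay below the median of 81.0% over 1635 mature sequences. They are predictions from sequence and not measurements of the RNA.

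Each library gave whole-number counts for both strands together, for the strand of the gene (sense) and for the opposite strand. Replicate 1 held 1157420 sense reads in microRNA genes among 6119818 reads, and replicate 2 held 1193393 among 6632802. Levels are given as counts per 1000000 sense reads (CPM), and a gene was counted as detected at 2 CPM or more in both libraries. Reads aligned to several places were 60.2% and 63.2% of all reads and stand on a line of their own, outside the gene counts. The 3 loci with a sequence above are near copies of each other over the mature part, so their levels are uncertain to an extent that was not tested. Mir378a has no sequence above, and whether any of its reads were assigned to these 3 loci was not tested either. Levels, shares and ranks of all genes below, Mir378a included, refer to reads assigned to a single gene. Of 9 striated muscle markers 8 were detected, led by Mir206 at 32940 ± 12.0 CPM (SD, n = 2). Mir486 held 4429, Mir499 423 and Mir208b 123 CPM on average. Those with near-identical copies at other loci were lower: Mir1a-2 held 48.5, Mir133b 15.9, Mir133a-1 12.9, Mir1a-1 9.82 and Mir133a-2 2.16 CPM on average. Whether the copies bear on these levels was not tested. The liver marker Mir122 stood at 10.6 ± 0.372 CPM (SD, n = 2). The ranges of Mir133b, Mir133a-1 and Mir1a-1 over the 2 libraries took in that level, and Mir133a-2 lay below it. Mir1a-2 lay above it, with 51.8 and 45.2 CPM in replicates 1 and 2.

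Mir378a held nearly all of the reads assigned to the family. It had 208057 sense reads in replicate 1 and 190232 in replicate 2. These were 179759 CPM (exact Clopper-Pearson 95% interval for counting error 179060 to 180460) and 159404 CPM (158748 to 160062), with a mean of 169582 ± 14393 CPM (SD, n = 2). The family as a whole took 18.00% of the sense reads in replicate 1 (exact interval 17.93 to 18.07) and 15.96% in replicate 2 (15.89 to 16.02), a mean of 17.0% ± 1.44 (SD, n = 2). Intervals here and below cover counting error only and treat each read as independent. Without molecular identifiers, amplified reads cannot be taken as separate molecules, and the intervals do not allow for that. In whole tissue, more cells of a type and more RNA per cell cannot be told apart.

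Mir378d, at a place between genes, was the next member. It had 151 reads in replicate 1 and 162 in replicate 2, which were 130 CPM (exact interval 110 to 153) and 136 CPM (116 to 158). Its mean was 133 ± 3.74 CPM (SD, n = 2). In CPM its coefficient of variation was the smallest of the detected members, at 2.81% against 8.49% for Mir378a. That order depends on the scaling. After the TMM scaling used further below, the fold of replicate 2 over replicate 1 was 1.29 for Mir378d and 1.10 for Mir378a. In each library Mir378a had over 1000 times as many reads as Mir378d: 1378 times in replicate 1 (exact interval 1175 to 1627) and 1174 times in replicate 2 (1007 to 1378).

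Mir378c had 53 and 37 reads in replicates 1 and 2, or 45.8 CPM (exact interval 34.3 to 59.9) and 31.0 CPM (21.8 to 42.7). Mir378b had 30 and 16 reads, or 25.9 CPM (17.5 to 37.0) and 13.4 CPM (7.66 to 21.8). Their means were 38.4 ± 10.5 and 19.7 ± 8.85 CPM (SD, n = 2), and both were higher in replicate 1. Mir378c had 1.77 times the reads of Mir378b in replicate 1 (exact interval 1.11 to 2.86) and 2.31 times in replicate 2 (1.26 to 4.45). Mir378d had 2.85 times (2.07 to 3.97) and 4.38 times (3.05 to 6.44) the reads of Mir378c.

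The order Mir378a, Mir378d, Mir378c, Mir378b was therefore the same in both libraries, and the ranges of no pair of members overlapped. The 3 minor loci together had 234 and 215 reads. As a share of the family these were 0.112% in replicate 1 (exact interval 0.0984 to 0.128) and 0.113% in replicate 2 (0.0983 to 0.129). Gm25301 had 1 read on its own strand in each library, or 0.864 and 0.838 CPM, and was the 1 member of 5 below the threshold of detection and below the 2.59 and 2.51 CPM that even a count of 0 allows.

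**Figure D1:**
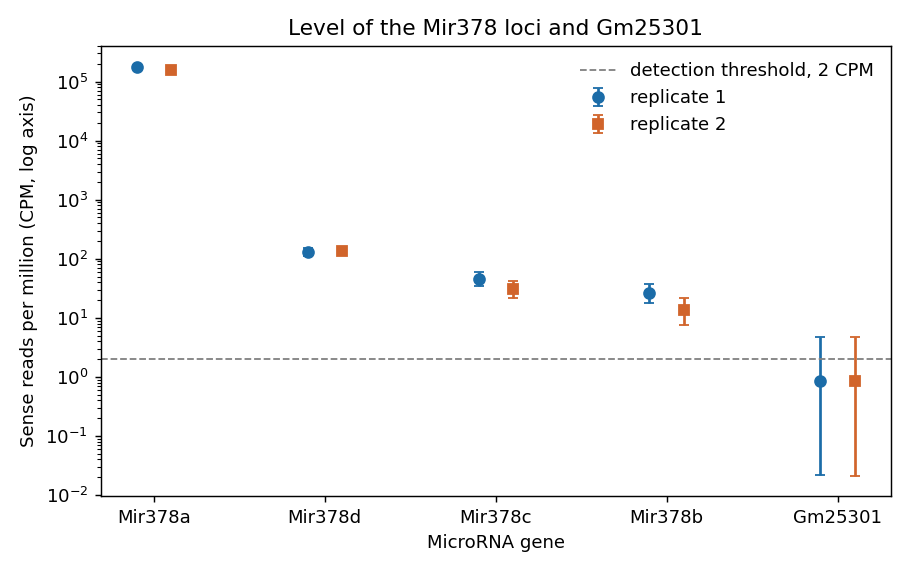
Sense reads per 1000000 (log axis) of the 5 genes in replicate 1 (circles) and replicate 2 (squares), with exact 95% intervals for counting error and the detection threshold of 2 CPM as a dashed line. Mir378a stands at 179759 and 159404 CPM, Mir378d, Mir378c and Mir378b lie between 13.4 and 136 CPM, and Gm25301 lies below the threshold with 1 read in each library.

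By reads assigned to a single gene, Mir378a ranked first among all microRNA genes in each library and by the mean. Reads aligned to several places, 3.18 and 3.51 for each sense read in replicates 1 and 2, have no part in this rank, and how it would stand with them was not tested. The next was Mir126a, the endothelial microRNA, at 80768 CPM in replicate 1 and 137673 in replicate 2, so that its range did not reach that of Mir378a. Mir378a had 2.23 times the reads of Mir126a in replicate 1 (exact interval 2.21 to 2.24) and 1.16 times in replicate 2 (1.15 to 1.17). The lead over Mir22, the third gene, was 3.41 times in replicate 1 and 1.48 times in replicate 2. Against Mirlet7g, a let-7 microRNA of differentiated tissue and the fourth gene, it was 2.83 and 2.59 times. Against Mir206 it was 5.46 and 4.84 times.

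Mir378d ranked 119 by the mean, Mir378c 174 and Mir378b 216 among all microRNA genes, of which 321 were detected. Unlike Mir378a they had close neighbours. The ranges over the 2 libraries of 18 other detected genes overlapped that of Mir378d, 53 that of Mir378c and 63 that of Mir378b, and none that of Mir378a. Those next to Mir378d in the order, Mir26a-2 at 134 ± 40.8 CPM and Mir26a-1 at 129 ± 170 CPM (SD, n = 2), did not differ from it beyond their spread. The same held for Mir337 and Mir190b beside Mir378c, and for Mir431 and Mir7035 beside Mir378b.

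**Figure D2:**
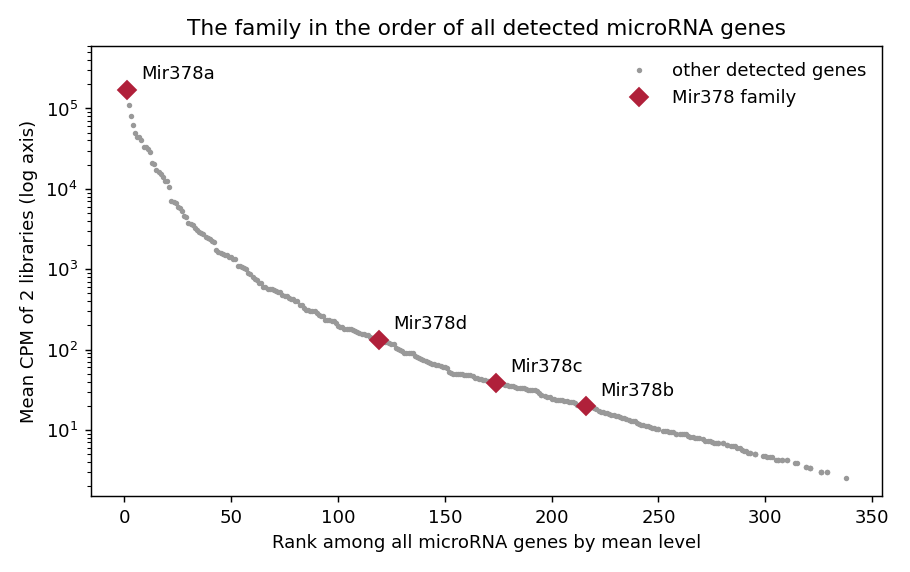
Mean CPM of the 2 libraries (log axis) against rank, with 1 point for each of the 321 detected genes and diamonds for the family. Mir378a opens the order at rank 1, and Mir378d, Mir378c and Mir378b lie at ranks 119, 174 and 216 among genes of like level.

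Likeness of level over the 2 libraries was measured as the Euclidean distance of log2(CPM + 1), which with 2 libraries of 1 group reflects mainly the mean level. The genes nearest to Mir378a were Mir126a at a distance of 1.2, Mir22 at 1.9 and Mirlet7g at 2.0. Those nearest to Mir378d were Mir16-2 at 0.18, with 148 and 132 CPM in replicates 1 and 2, and Mir700 at 0.23. Mir378c was nearest to Mir598 at 0.082, with 43.2 and 31.0 CPM, and to Mir190b at 0.18. Mir378b was nearest to Mir331 at 0.13, with 24.2 and 14.2 CPM, and to Mir1941 at 0.17. The nearest gene to Mir378a thus lay farther off than those of the 3 minor loci.

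The members also differed in their place relative to coding genes. By the annotation of mm10, Mir378a (ENSMUSG00000105200.1, 66 bases) lies on chromosome 18 from 61397835 to 61397900 on the minus strand. It is in intron 1 of all 3 annotated Ppargc1b transcripts that contain it, on the strand of the host, 2531 bases from the start of the gene and 2389 bases after the first exon. Gm25301 (ENSMUSG00000093026.1, 113 bases) lies on chromosome 18 from 61397813 to 61397925 on the plus strand, and covers all 66 bases of Mir378a with 22 and 25 more on either side. Mir378b (ENSMUSG00000092985.1), on chromosome 11 from 88352773 to 88352864 on the plus strand, and Mir378c (ENSMUSG00000099036.1), on chromosome 14 from 46954830 to 46954928 on the minus strand, also lie in introns. Their surrounding genes, Msi2 and Samd4, both encode RNA-binding proteins and run on the opposite strand. Mir378d (ENSMUSG00000098756.1), on chromosome 10 from 126710282 to 126710391 on the minus strand, lies in no other annotated gene. The nearest coding gene was Atp23, 158036 bases away.

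**Figure D3:**
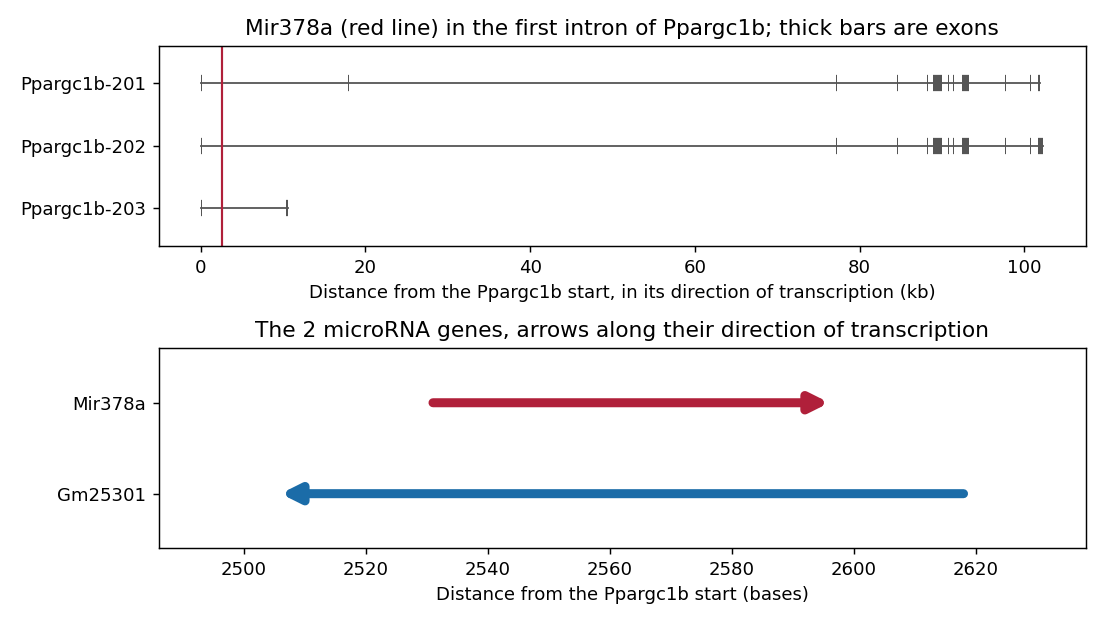
Upper panel: exons (thick bars) of the 3 Ppargc1b transcripts against the distance from the start of the gene in kb, with Mir378a as a red line in the first intron. Lower panel: extent and direction of Mir378a and Gm25301 in bases from the same start, with Mir378a, from 2531 to 2596, inside Gm25301, from 2506 to 2618.

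Of the family, only Mir378a thus had a coding gene on its own strand around it. Over all microRNA genes, 969 had such a host, and 157 of them were detected, with a median of 51.0 CPM. Together they took 58.0% and 64.7% of the sense reads in replicates 1 and 2. Mir378a was the highest of them, with 31.0% of the reads of such genes in replicate 1 (exact interval 30.9 to 31.1) and 24.6% in replicate 2 (24.5 to 24.7). Of 306 genes within a coding gene of the opposite strand, as Mir378b and Mir378c are, 31 were detected, with a median of 34.9 CPM. This class took 6.09% and 4.76% of the sense reads in replicates 1 and 2. Of 927 genes in no coding gene, as Mir378d is, 133 were detected, with a median of 47.7 CPM. Their share of the sense reads was 35.9% in replicate 1 and 30.5% in replicate 2. These classes describe where the members stand and were not tested against each other. RNA of Ppargc1b itself was not measured in these libraries.

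At the place where Mir378a and Gm25301 overlap, the reads came almost wholly from the strand of Mir378a. On the opposite strand of Mir378a there was 1 read in each library, against 208057 and 190232 on its own. The share on the Mir378a strand was 99.9995% in both libraries, with a lower exact 95% limit of 99.9973% in replicate 1 and 99.9971% in replicate 2. The opposite-strand column of Gm25301 mirrored this, with 208058 reads in replicate 1 and 190232 in replicate 2. In replicate 1 it was 1 read above the sense count of Mir378a, and Gm25301 is the longer gene.

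Opposite-strand reads per 1000000 reads of the locus were 4.81 at Mir378a in replicate 1 (exact interval 0.122 to 26.8) and 5.26 in replicate 2 (0.133 to 29.3). Over the 2138 genes that overlap no microRNA gene on the other strand, the same quantity was 22.8 reads per 1000000 in replicate 1 (13.7 to 35.7) and 30.6 in replicate 2 (19.8 to 45.1). The rate at Mir378a was the lower in both libraries, with intervals that overlapped. Overlap of intervals does not decide whether the rates differ, and a difference between them was not tested. The single reads of Gm25301 thus did not exceed this background of opposite-strand reads.

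When strand was ignored, the gene with the most sense reads disappeared from the counts. In the column of both strands Mir378a had 0 reads in each library, and Gm25301 had 1 in replicate 1 and 0 in replicate 2. The ambiguous reads of that column, which fall on more than 1 gene, numbered 325180 in replicate 1 and 375109 in replicate 2, whereas both stranded columns had 0. The sense reads of Mir378a equalled 64.0% of that total in replicate 1 and 50.7% in replicate 2. Mir378b, Mir378c and Mir378d, which overlap no microRNA gene on the other strand, had the same counts in both columns and no opposite-strand read.

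There were 32 such overlapping pairs among the microRNA genes, and 6 had a gene with 1000 or more sense reads in either library. In all 6 the more abundant gene had 0 reads in the column of both strands in replicate 1, and in replicate 2 all had 0 except Mir126a with 2. Mir126a, opposite Mir126b, equalled 28.7% and 43.8% of the ambiguous reads, so that it and Mir378a made up most of them. Mir486 was the pair whose partner had over 1 read, with 5963 and 4423 reads against 133 and 49 for its partner Mir3107. The partner Mir126b had 1 read, in replicate 2. The other 3 pairs were Mir191 with Gm24083, Mirlet7e with Gm25927, and Mir30e with Mir30f, whose partner genes had no read.

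**Figure D4:**
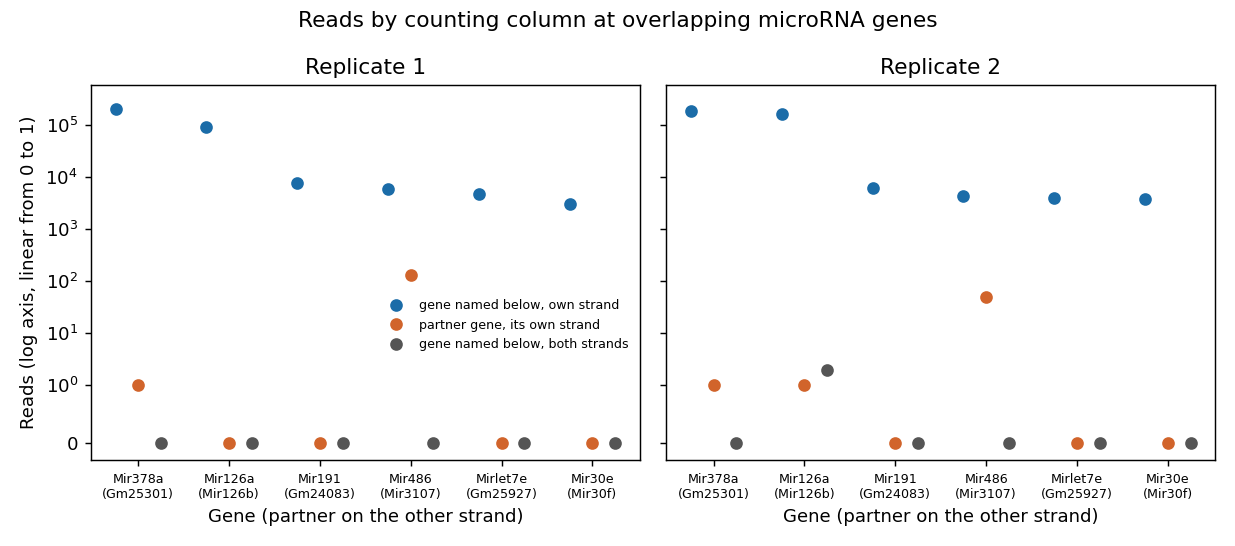
Reads (log axis, linear from 0 to 1) of the 6 pairs in replicate 1 (left) and replicate 2 (right): the abundant gene on its own strand (blue), its partner on the partner's strand (orange) and the abundant gene in the column of both strands (grey). Mir378a falls from 208057 and 190232 reads to 0 when strand is ignored, and the partner carries over 1 read in the pair of Mir486 alone.

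The 2 libraries were then compared with TMM scaling from edgeR and a two-sided exact binomial test of the 2 counts of each detected gene. This test compares these libraries, not conditions, and knows counting error only. Of 321 genes tested, 37.4% differed after Benjamini-Hochberg adjustment over all of them, with 18.7% higher and 18.7% lower in replicate 2. Of the 4 family members tested, 1 differed.

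Mir378a was 1.10-fold higher in replicate 2 (95% interval 1.09 to 1.10; exact binomial adjusted p = 1.51e-184). The difference was small, at 0.13 on the log2 scale with a pseudocount of 1 CPM, and only 17.4% of tested genes had a smaller one, where the median size was 0.40. With total counts in place of TMM, which moved the median of all genes to -0.30, the direction turned and Mir378a had a log2 ratio of -0.17, as its CPM show. With the dispersion set to 0.01 it did not pass the exact test of edgeR (adjusted p = 0.798).

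Mir378d had a fold of 1.29 for replicate 2 over replicate 1 (95% interval 1.02 to 1.62; exact binomial adjusted p = 0.0700), and passed with 3 of the alternative settings, with an adjusted p between 0.0402 and 0.0493 in the exact binomial test. Mir378c had a fold of 0.837 (0.535 to 1.30; exact binomial adjusted p = 0.627) and Mir378b a fold of 0.640 (0.326 to 1.21; exact binomial adjusted p = 0.325). With 16 to 53 reads in a library, these intervals leave room for differences in either direction. Gm25301, with 1 read in each library, was below the threshold and was not tested.

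**Figure D5:**
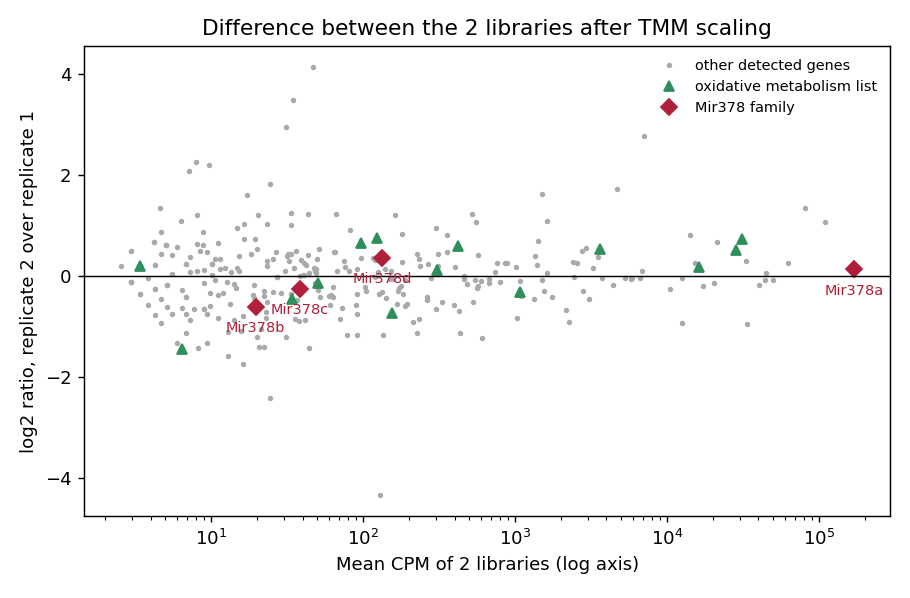
Log2 ratio of replicate 2 over replicate 1 after TMM scaling against mean CPM (log axis), with 1 point per detected gene, triangles for the oxidative metabolism list and diamonds for the family. Mir378b, Mir378c and Mir378d lie between -0.61 and 0.36, among other genes of like level, and Mir378a stands at the far right with 0.13.

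Other microRNAs known for a part in mitochondrial or lipid metabolism or in oxidative fibres were taken from a list of 18, of which 17 were matched by name, all but Mir696. Of these, 14 were detected and 9 held 100 CPM or more. Together the 17 took 7.59% of the sense reads in replicate 1 and 8.81% in replicate 2, less than Mir378a alone. Mir23a, known for lowering PGC-1α, held 31274 ± 6598 CPM, and Mir23b, which shares its seed, 28588 ± 2948 CPM (SD, n = 2). Mir378a had 6.76 and 4.44 times the reads of Mir23a in replicates 1 and 2.

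Mir149, linked to mitochondrial function in muscle, held 16241 ± 990 CPM, and Mir27b, from the cluster of Mir23b, 3613 ± 421 CPM (SD, n = 2). Mir34a, which targets Sirt1, held 1087 ± 325 CPM, and Mir338, known for a mitochondrial target in neurons, 306 ± 28.9 CPM (SD, n = 2). Mir499 and Mir208b, which lie within slow-type myosin genes, held 423 ± 59.4 and 123 ± 27.4 CPM, and Mir107, known for a part in insulin sensitivity, 155 ± 75.5 CPM (SD, n = 2). Mir378d, at 133 CPM, was thus at the level of Mir208b. The other 8 matched members lay below 100 CPM, among them Mir761 without a read, which allows up to 2.59 CPM in replicate 1 and 2.51 in replicate 2.

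Between the libraries, 7 of the 14 detected members of this list were higher in replicate 2 and 2 were lower by the exact binomial test, beside 18.7% higher and 18.7% lower over all genes tested. The median log2 ratio was 0.19, against -0.013 over all genes. With total counts only, 5 were higher and 5 lower and the median was -0.079, beside 35 higher and 114 lower of all 321 genes. The exact test of edgeR with a dispersion of 0.01 found 2 higher and 1 lower, beside 29 and 24 of all genes. The list was put together with earlier results of these data known and is no independent evidence.

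Some markers of other cell types also differed between the libraries, as did 37.4% of all genes tested. The endothelial marker Mir126a, the 1 gene of its list, passed the test and took 8.08% of the sense reads in replicate 1 and 13.8% in replicate 2. The adipose list, of which 3 of 4 members were detected, took 0.149% and 0.0680%, led by Mir193b at 1416 and 645 CPM. Of its 3 detected members, 2 were lower in replicate 2, beside 18.7% of all genes tested, and Mir365-1 had a fold of 1.60 (exact binomial adjusted p = 0.567). The erythroid markers took 0.0163% and 0.0153%, but Mir144, with 7.78 and 54.5 CPM, had a fold of 8.66 for replicate 2 (exact binomial adjusted p = 3.29e-13), and Mir451a had a fold of 0.780 (exact binomial adjusted p = 0.0918). The 4 leukocyte markers took 0.318% and 0.225%, with 1 of them, Mir150, lower in replicate 2, beside 18.7% of all genes tested. The liver marker Mir122 had a fold of 1.30 (exact binomial adjusted p = 0.722). In the exact test of edgeR with a dispersion of 0.01, 1 adipose and 0 leukocyte markers were lower. By that test 1 erythroid marker and the endothelial marker were higher, beside 29 higher and 24 lower of all genes. None of the markers listed was at 0 in both libraries. Their part in the level of Mir378a was not tested.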

How the data were processed

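Small RNA libraries of gastrocnemius were analysed from the authors' deposited read counts per microRNA gene, which are whole numbers and not normalized. Counting used mm10 and M21, per the labels' file descriptions. The aligner was not given in the sources used here, nor were the counter and its filters. All 2202 identifiers were matched to GENCODE M21. The 4 lines of totals that name no gene stayed out of library sizes and tests. Sense was assigned to whichever stranded column had more reads, which was the same column in both libraries. Depth was 1157420 and 1193393 sense reads, 18.9% and 18.0% of all reads, and the lines of totals held the rest. Sampling noise did not cover the difference between the libraries (chi-square 93784, 320 df), which were counted as 2 samples.

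CPM, ratios, exact binomial tests across all genes at 2 CPM or more in both libraries and Clopper-Pearson 95% intervals were computed in Python 3.11.15 with scipy 1.17.1. TMM factors, 1.11 and 0.899, came from edgeR 4.0.16 and alternative size factors from DESeq2 1.42.0, in R 4.3.3. Hairpins were folded with RNAfold 2.7.2. The test was checked on simulated data. Sequences came from the RefSeq table, which holds 3 of the 5 members. Named genes, beside members and hosts, were the nearest by level and rank, list members at 100 CPM or more, pairs at 1000 reads or more, and marker genes. The members and lists were chosen with earlier results of these data known. The alternatives were another count column, denominator, scaling, filter, pseudocount, test, and leaving out each replicate.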

Additional observations from a re-analysis of the deposited data

How the results depend on the processing

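With the column of both strands, Mir378a had 0 CPM and rank 542, the family share was 0.0272%, and Mir378c and Mir378d stood at 54.4 and 190 CPM. Gene counts of that column lack reads on overlapping genes, so its total is smaller. With Mir378a out of the denominator, Mir378a stood at 204393 and Mir378d at 160 reads per 1000000, and the family share was 20.5%. With all reads of a library as the denominator, the reads per 1000000 were 31339 for Mir378a, 3.66 for Mir378b, 7.12 for Mir378c and 24.5 for Mir378d, and the family held 3.14%. Leaving out each replicate gave 159404 to 179759 CPM for Mir378a, 13.4 to 25.9 for Mir378b, 31.0 to 45.8 for Mir378c, 130 to 136 for Mir378d and 16.0% to 18.0% for the family, with Mir378a at rank 1. The number of members detected was 4, with 5 without a filter and 3 with the column of both strands.

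The log2 ratio of Mir378a turned to -0.17 with total counts only and did not pass at 0.13 with the exact test of edgeR and a dispersion of 0.01. That of Mir378d passed at 0.40 with the column of both strands, 0.41 without Mir378a in the denominator and 0.37 with a filter of 10 CPM, which tests fewer genes; the cause was not tested for the others. The edgeR test called 53 genes in place of 120. Mir378b and Mir378c kept their direction and passed in none of the settings run. No paired analysis was possible because there is 1 group. With 16 to 53 reads in a library, depth limits what can be said of Mir378b and Mir378c.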

Other observations

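Because Mir378a took 15.9% to 18.0% of the sense reads, the CPM of all other genes depends on whether it is counted. Leaving it out of the denominator raised every other gene 1.219-fold in replicate 1 and 1.190-fold in replicate 2.

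Of the genes in the 32 overlapping pairs, the sense reads summed to 325180 in replicate 1 and 375111 in replicate 2. The ambiguous reads in the column of both strands numbered 325180 and 375109. The totals thus differed by 0 and by 2 reads, and Mir126a had 2 reads in the column of both strands in replicate 2.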
